A study of Homo sapiens with 18 samples.

Results

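The comparison described here sets the response of IMR-32 cells to the inhibitor BRM014 against their response to depletion of SMARCA4, gene by gene. IMR-32 is an established neuroblastoma cell line with amplified MYCN. For each gene, the log2 change with auxin in IMR-32 cells that carry a mini auxin-inducible degron on SMARCA4 (SMARCA4-mAID) was subtracted from the log2 change with BRM014 in parental IMR-32 cells. The comparison uses 8 of the 18 libraries of the series, 2 in each of 4 groups, and covers all 12853 genes that passed the filter on low counts. The groups were parental IMR-32 with 1 uM BRM014, parental IMR-32 with an equal volume of its solvent DMSO, SMARCA4-mAID IMR-32 with 500 uM auxin (indole-3-acetic acid), and SMARCA4-mAID IMR-32 with an equal volume of ethanol. Cells of all 8 libraries also received 500 uM 4-thiouridine (4sU) for the last 2 h, which marks newly made RNA. No source used here gives the time spent in BRM014 or auxin, or says whether the SMARCA4-mAID line is 1 clone. Nor do the labels say that replicates were separate cultures. The p-values thus reflect how far the libraries of a group lay apart, a spread that may be technical only. The arms differ in line, agent, solvent and target together, and the contribution of each cannot be told apart in this difference.

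SMARCA4 (BRG1) and its paralogue SMARCA2 (BRM) are the alternative motors of SWI/SNF (BAF) complexes, which use ATP to slide or evict nucleosomes and so open or close enhancers and promoters. BRM014 blocks the ATPase activity of both proteins, whereas auxin directs a ubiquitin ligase to the degron tag, so that the tagged SMARCA4 protein is destroyed and untagged SMARCA2 is not a target. Adrenergic neuroblastoma cells, of which IMR-32 is a standard model, are held in their state by a circuit of transcription factors that includes HAND2, GATA3, ISL1, TBX2 and MYCN.

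The BRM014 libraries held 741970 and 775064 gene counts and the DMSO libraries 1438139 and 1148208. The auxin libraries held 1376718 and 1612020, and the ethanol libraries 1505905 and 1638317. Between 13327 and 14654 genes were detected per library. Reads assigned to no gene made up 57.3% and 57.4% of the BRM014 libraries and 50.8% and 53.5% of the DMSO libraries. All 12 markers of sympathetic neuroblasts on the list used, among them PHOX2A and HAND2, were detected, with a sum of 3027 to 4310 counts per 1e+06 (CPM) in every library. The endothelial list summed to 0 to 4.58 CPM (5 of 10 genes at 0 in all 8 libraries) and the leukocyte list to 1.83 to 13.8 CPM (4 of 10 at 0). Schwann lineage markers summed to 52.0 to 53.04 CPM with BRM014, 34.6 to 34.8 with DMSO, 39.3 to 43.4 with auxin and 13.8 to 15.2 with ethanol, and markers at 0 included S100B, FOXD3 and CDH19. Fibroblast markers summed to 178 to 181 CPM with BRM014, 274 to 329 with DMSO, 221 to 230 with auxin and 214 to 227 with ethanol, and DCN, FAP and POSTN were at 0. Of the Schwann list only PMP22 passed the filter on low counts, and it was called higher with auxin (log2 2.10). Of the 4 fibroblast markers that passed, BRM014 lowered 3, and auxin changed none past the threshold. The part of these sums in the results below was not tested.

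SMARCA4 RNA, which neither agent is meant to remove, had 55 and 59 counts with BRM014 against 123 and 117 with DMSO, and 887 and 942 counts with auxin against 1091 and 1379 with ethanol. On the CPM scale these were 81.0 and 82.9 with BRM014, 90.4 and 107 with DMSO, 663 and 607 with auxin, and 752 and 867 with ethanol. The locus (hg38 chr19:10960825-11079426, plus strand) was thus several times more abundant in both groups of the engineered line than in both groups of the parental line. The difference between the arms was 0.09 ± 0.22 (log2, SE) and was not called (adjusted p = 0.938). SMARCA2, the motor without a degron, had between 5 and 27 counts per library, and its difference of 0.03 ± 1.11 was not called (adjusted p = 1). At so few counts a change could not have been seen unless it was large. Loss of the SMARCA4 protein is not measured by RNA counts.

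More genes passed the threshold with the inhibitor than with depletion. BRM014 changed 1650 genes in the parental line, 12.8% of those tested, 805 (6.26%) higher and 845 (6.57%) lower. Auxin changed 281 genes in the SMARCA4-mAID line, 2.19% of those tested, 132 (1.03%) higher and 149 (1.16%) lower. The difference between the arms was called for 250 genes, 1.95% of those tested, of which 136 (1.06%) had the BRM014 effect above the auxin effect and 114 (0.887%) had it below. At an unadjusted p below 0.05 the difference held for 1592 genes. Protein-coding genes made up 246 of the 250. In 249 of the 250 genes (99.6%), all 4 BRM014-minus-DMSO differences between single libraries lay beyond all 4 auxin-minus-ethanol differences. Among all tested genes this held for 12.3% in the direction of a higher BRM014 effect and for 14.4% in the other. The 250 genes were called on these same libraries, so their separation follows largely from the choice and is no added support.

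Each of these counts fell when any 1 library of the groups compared was left out. Such a fit leaves a group with 1 library, and fewer samples reach fewer calls by construction. The fall thus does not single out a library. The 250 genes became 142 without BRM014 replicate 1, 131 without DMSO replicate 1, 143 without DMSO replicate 2, 145 without auxin replicate 1, 156 without auxin replicate 2 and 138 without ethanol replicate 1. Calls in the BRM014 arm numbered 980 and 1032 without BRM014 replicate 1 and 2, and 904 and 1085 without DMSO replicate 1 and 2. Calls in the auxin arm numbered 137 and 126 without auxin replicate 1 and 2, and 124 and 139 without ethanol replicate 1 and 2. With all libraries thinned to the smallest total, 205 genes were called for the difference, 175 of them among the 250.

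For most of the 250 genes the BRM014 arm alone passed the threshold, in 184 of them. The 94 with a higher BRM014 effect had a median log2 change of 1.01 with BRM014 and 0.0051 with auxin, and the 90 with a lower one had medians of -1.18 and -0.0046. The class was chosen on these same libraries as called with BRM014 and not with auxin, so auxin medians near 0 follow in part from the choice. The auxin change was above 0 for 47 of the 94 and for 45 of the 90, and single genes lay away from 0. A further 30 genes were called in both arms in the same direction, 16 higher and 14 lower, and in all 30 the BRM014 effect lay further from 0. The auxin arm alone was called for 17 genes, both arms in opposite directions for 6, and neither arm for 13. An arm that missed the threshold is not thereby shown to be unmoved. For each of these genes the difference itself is what passed.

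Genes called in an arm mostly had the same sign in the other. Of the 177 genes called in both arms, 171 had the same direction. Among the 1650 genes called with BRM014, 1384 (83.9%) had a log2 change of the same sign with auxin, and among the 281 called with auxin, 254 (90.4%) had the same sign with BRM014. Of the BRM014 calls 10.7% were also called with auxin, against 63.0% of the auxin calls that were also called with BRM014. Over all tested genes, the log2 changes in the arms, which share no library, had a Pearson r of 0.19 and a Spearman rho of 0.29. These correlations are across genes, which are not independent replicates. The share of the same sign over all tested genes was not worked out, so the same-sign shares stand without it. The difference was called for 220 (13.3%) of the genes called with BRM014 and for 53 of those called with auxin.

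**Figure D1:**
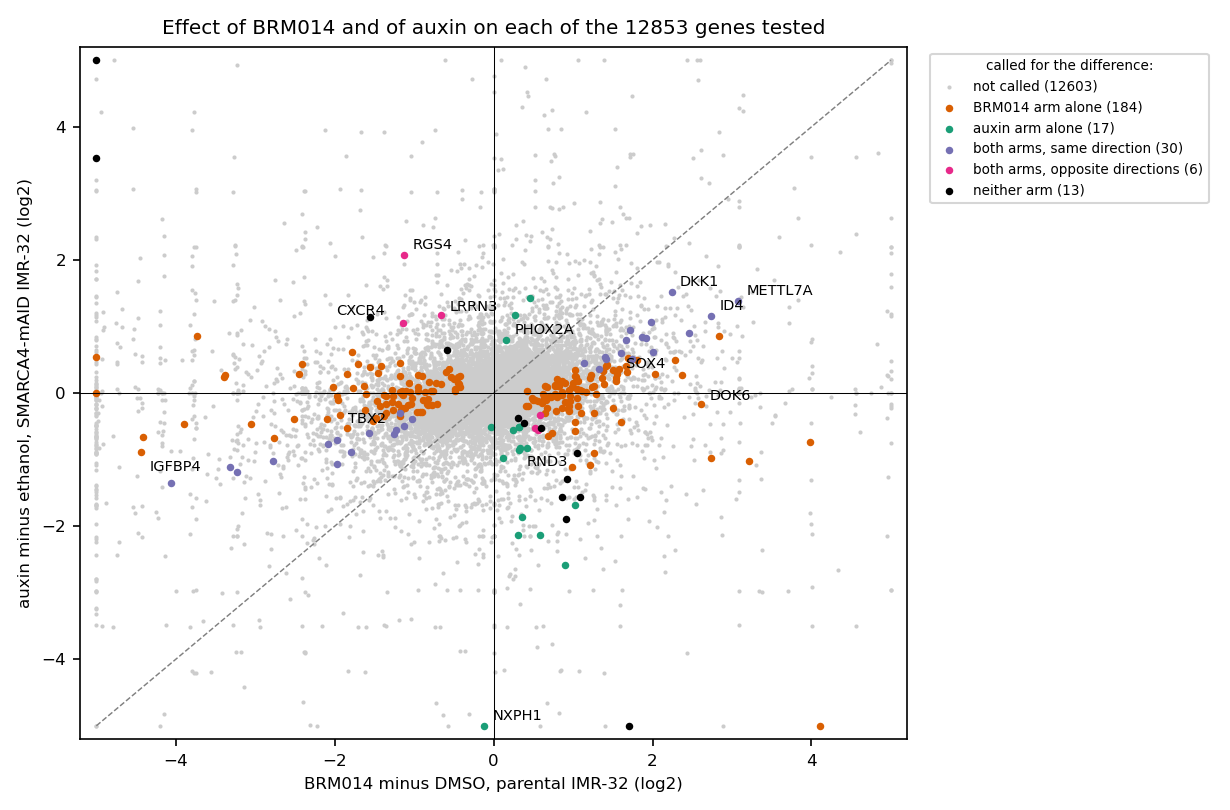
Log2 change with BRM014 over DMSO in parental IMR-32 (x axis) against log2 change with auxin over ethanol in SMARCA4-mAID IMR-32 (y axis) for the 12853 genes tested, with values beyond the axes drawn at the edge. Coloured points are the 250 genes called for the difference, by the arm or arms in which they were also called, and the dashed line marks equal effects. Most coloured points lie along the x axis, which follows in part from the choice of genes not called with auxin. A further 6 lie in the quadrants of opposite direction with both arms called.

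Called genes had a higher median level than all tested genes, and the higher and lower sets differed in median composition. The median level was 210 CPM for the 136 genes with a higher BRM014 effect and 141 CPM for the 114 with a lower one, against 32.5 CPM over all tested genes. Median transcript GC content was 44.4% in the higher set and 51.6% in the lower set, against 49.0% over all tested genes, and median transcript length was 3090 and 2210 bases, against 1873. With offsets for GC content and length in the fit, 210 genes were called for the difference, 185 of them among the 250. Shares of gene lists called, given below, are set beside all tested genes and were not matched for level.

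For 6 genes the inhibitor and depletion moved new RNA in opposite directions, each past the threshold in both arms. RGS4, LRRN3 and CXCR4 fell with BRM014 and rose with auxin. MAB21L1, INSM1 and SLAIN1 rose with BRM014 and fell with auxin. The difference of each gene was called under all 16 alternative settings. The arm calls were less firm: the number of genes called in both arms in opposite directions was 10 with the 8 IMR-32 libraries fitted alone, 3 after thinning, 3 without BRM014 replicate 2, 2 without auxin replicate 1, 1 without ethanol replicate 1 and 3 without ethanol replicate 2.

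RGS4 (hg38 chr1:163068775-163076802, plus strand), which speeds the shut-off of G-protein signalling, had the smallest p of all genes for the difference. Its level was 81.0 and 35.1 CPM with BRM014 against 122 and 130 CPM with DMSO, and 23.2 and 39.9 CPM with auxin against 9.64 and 5.66 CPM with ethanol. Neither pair of groups overlapped, and the control level in the parental line was far above that in the engineered line. RGS4 fell by 1.12 ± 0.17 (log2, SE) with BRM014 and rose by 2.07 ± 0.27 with auxin, a difference of -3.19 ± 0.32 (adjusted p = 6.38e-12). CXCR4 (chr2:136114349-136118165, minus strand), the receptor for the chemokine CXCL12, had 100 and 68.8 CPM with BRM014 against 188 and 185 CPM with DMSO. It had 83.7 and 76.0 CPM with auxin against 39.3 and 37.7 CPM with ethanol, for a difference of -2.19 ± 0.38 (adjusted p = 5.81e-05). The treated levels of the lines overlapped, and the control levels were apart. LRRN3 (chr7:111091006-111125454, plus strand), a leucine-rich repeat membrane protein of neurons, had 92.8 and 121 CPM with BRM014 against 162 and 177 CPM with DMSO, and 61.3 and 54.1 CPM with auxin against 16.5 and 34.0 CPM with ethanol. Its difference was -1.83 ± 0.28 (adjusted p = 3.56e-06).

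MAB21L1 (chr13:35474182-35477209, minus strand), which is needed for eye development in mice, was the most abundant of the 6. It had 1288 and 1208 CPM with BRM014 against 847 and 817 CPM with DMSO, and 804 and 898 CPM with auxin against 1094 and 1049 CPM with ethanol. The difference was 0.92 ± 0.13 (adjusted p = 1.88e-07). INSM1 (chr20:20368121-20370949, plus strand), a zinc finger transcription factor of neuroendocrine cells, had 390 and 458 CPM with BRM014 against 258 and 337 CPM with DMSO, and 318 and 338 CPM with auxin against 481 and 468 CPM with ethanol. It rose by 0.52 ± 0.14 with BRM014 and fell by 0.53 ± 0.13 with auxin, for a difference of 1.05 ± 0.19 (adjusted p = 0.000165). SLAIN1 (chr13:77697854-77764242, plus strand), a microtubule plus-end protein, had 352 and 350 CPM with BRM014 against 241 and 233 CPM with DMSO, and 176 and 220 CPM with auxin against 296 and 286 CPM with ethanol. Its difference was 1.12 ± 0.22 (adjusted p = 0.000473). In all 3 genes the libraries of each treatment lay apart from those of its control.

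**Figure D2:**
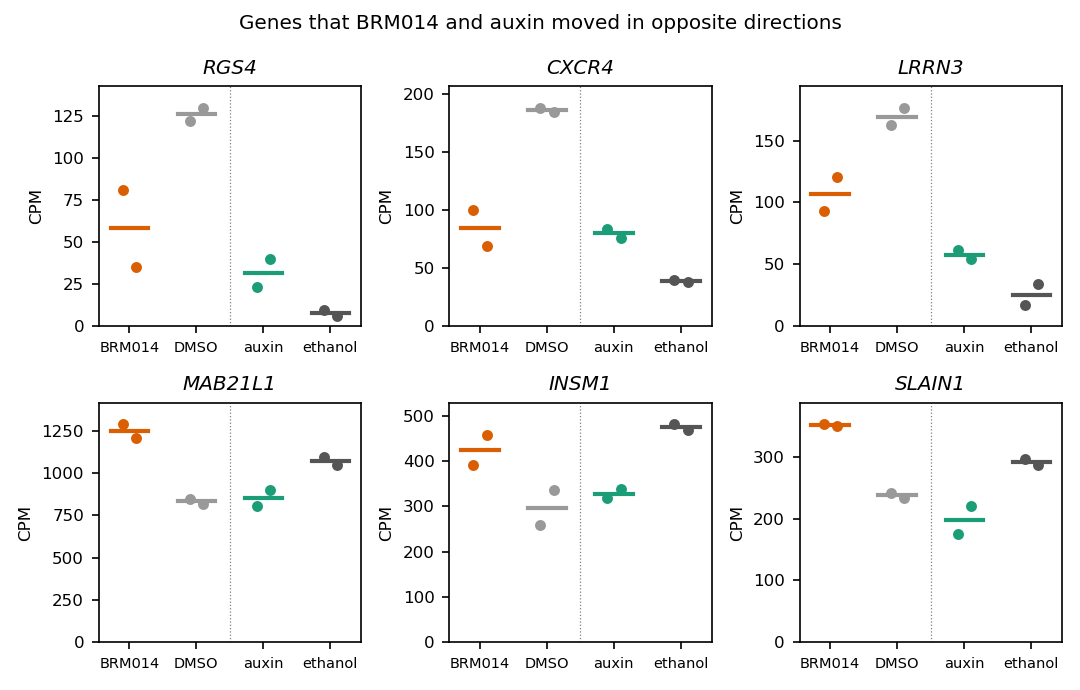
Level in CPM (y axis, from 0) of the 6 genes called in both arms in opposite directions, in each of the 8 IMR-32 libraries. Points are libraries and bars are group means of 2, for BRM014 and DMSO in the parental line (left of the dotted line) and auxin and ethanol in the SMARCA4-mAID line (right). RGS4, CXCR4 and LRRN3 are lower with BRM014 and higher with auxin, and MAB21L1, INSM1 and SLAIN1 the other way round.

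The promoters of the gene with the smallest p in each direction of this class are shown from RefSeq (GRCh38.p14), from 250 bases before to 50 bases after the annotated start, 5′ to 3′ on the gene's strand. The window of RGS4 (chr1:163068621-163068920, plus strand) has a GC content of 44.7% and 8 CpG dinucleotides and held none of the motifs searched, which on both strands were the TATA box written as TATAAA, the CCAAT box by its name, the GC box written as GGGCGG, the E-box of MYC written as CACGTG, the site of AP-1 factors written as TGANTCA, the cAMP response element written as TGACGTCA, and the E2F site written as TTTCCCGC or as TTTGGCGC. The window of MAB21L1 (chr13:35476640-35476939, minus strand) has a GC content of 51.7% and 11 CpG dinucleotides. Its capitals mark a CCAAT box and a GC box, which adjoin, and a TATA box, all as read on the other strand. A TATA box occurred in 5.29% of the 9826 tested genes with a promoter in the table, a CCAAT box in 37.0% and a GC box in 70.1%. A match is a run of letters and not evidence of binding.
RGS4: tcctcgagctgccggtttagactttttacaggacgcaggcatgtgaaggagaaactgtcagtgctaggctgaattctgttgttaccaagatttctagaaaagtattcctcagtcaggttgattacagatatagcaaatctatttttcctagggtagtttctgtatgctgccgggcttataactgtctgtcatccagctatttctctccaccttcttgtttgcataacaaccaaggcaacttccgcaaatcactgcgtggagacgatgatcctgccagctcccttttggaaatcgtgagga
MAB21L1: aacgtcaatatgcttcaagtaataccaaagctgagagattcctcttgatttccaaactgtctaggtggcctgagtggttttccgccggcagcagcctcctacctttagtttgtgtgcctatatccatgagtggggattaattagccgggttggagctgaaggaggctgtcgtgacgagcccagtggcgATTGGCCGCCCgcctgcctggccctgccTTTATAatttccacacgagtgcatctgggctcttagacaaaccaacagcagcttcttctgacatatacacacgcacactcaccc

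Among the genes called in the BRM014 arm alone and higher with the inhibitor, SOX4, KIF21A and FAM84A were among those with the smallest p. SOX4, a transcription factor of neural progenitors, had 1485 and 1489 CPM with BRM014 against 480 and 531 CPM with DMSO, and 698 and 792 CPM with auxin against 568 and 653 CPM with ethanol. It rose by 1.56 ± 0.10 with BRM014, auxin gave 0.29 ± 0.10 (adjusted p = 0.122), and the difference was 1.27 ± 0.14 (adjusted p = 2.16e-10). The BRM014 libraries stood at about the same level as each other and apart from all other libraries. FOXC1, a forkhead factor of mesenchyme and eye, had 385 and 354 CPM with BRM014 against 80.9 and 69.6 CPM with DMSO, and 86.0 and 92.7 CPM with auxin against 68.2 and 58.5 CPM with ethanol (difference 1.79 ± 0.30, adjusted p = 1.81e-05). HRK, a pro-death BH3-only protein, had 922 and 886 CPM with BRM014 against 301 and 319 CPM with DMSO, and 268 and 281 CPM with auxin against 222 and 247 CPM with ethanol (difference 1.31 ± 0.19, adjusted p = 1.01e-06). CPEB2, a regulator of mRNA translation, differed by 2.10 ± 0.36, KDM7A, a histone demethylase, by 1.74 ± 0.31, and DOK6, an adaptor of the receptor kinase RET, by 2.78 ± 0.55. SEMA6A, a membrane semaphorin, had 73.7 and 80.1 CPM with BRM014 against 25.7 and 39.4 CPM with DMSO, and 9.72 and 11.6 CPM with auxin against 24.1 and 16.4 CPM with ethanol. Its change with auxin of -0.90 ± 0.33 was not called (adjusted p = 0.175), while its difference of 2.16 ± 0.42 was (adjusted p = 0.000435). The kinesin KIF21A (1.08 ± 0.14), the sialyltransferase ST6GALNAC3 (1.73 ± 0.37) and FAM84A (0.84 ± 0.11) were also higher with BRM014 in this class. The difference of each gene in this paragraph was called under all 16 alternatives.

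Genes lower with BRM014 and not called with auxin included some that nearly lost their counts. IGFBP4, which binds and restrains insulin-like growth factors, had 1 and 3 counts with BRM014 against 88 and 70 with DMSO, and 36 and 52 counts with auxin against 87 and 83 with ethanol. On the log2 scale it fell by 4.44 ± 0.55 with BRM014, auxin gave -0.88 ± 0.32 (adjusted p = 0.145), and the difference was -3.56 ± 0.69 (adjusted p = 0.000513). LIMA1, an actin cross-linking protein, had 67.8 and 78.7 CPM with BRM014 against 187 and 205 CPM with DMSO, and 192 and 223 CPM with auxin against 153 and 161 CPM with ethanol (difference -1.82 ± 0.25, adjusted p = 2.03e-07). SHMT2, the mitochondrial serine hydroxymethyltransferase, had 17.7 and 18.3 CPM with BRM014 against 115 and 89.7 CPM with DMSO, and 71.8 and 77.3 CPM with auxin against 93.7 and 101 CPM with ethanol (difference -2.13 ± 0.42, adjusted p = 0.000556). ISLR2, an immunoglobulin-domain protein of axons, differed by -2.14 ± 0.44 (adjusted p = 0.00085), CPLX2, a complexin of synaptic vesicle release, by -1.18 ± 0.24, and SCD, which desaturates fatty acids, by -0.67 ± 0.13. These 6 differences were called under all 16 alternatives. DLX3, a homeobox factor, had 2 and 2 counts with BRM014 against 97 and 60 with DMSO, and 37 and 39 counts with auxin against 55 and 72 with ethanol. Its difference of -3.76 ± 0.86 (adjusted p = 0.00457) was -3.55 without DMSO replicate 1 and then missed the threshold. DDC, the decarboxylase that makes dopamine, had no count with BRM014 against 39 over the DMSO libraries, at least 7.37-fold lower when the BRM014 group is set to 3 counts in all. It had 13 and 13 counts with auxin against 24 and 3 with ethanol, and its call was lost without BRM014 replicate 1 or 2 (-7.44 as fitted in each case).

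For 17 genes the auxin arm alone passed the threshold. RND3, an inhibitor of RhoA signalling, had 245 and 291 CPM with BRM014 against 215 and 215 CPM with DMSO, and 301 and 370 CPM with auxin against 626 and 587 CPM with ethanol. It fell by 0.85 ± 0.11 with auxin, BRM014 gave 0.32 ± 0.13 (adjusted p = 0.103), and the difference was 1.17 ± 0.17 (adjusted p = 1.38e-06). In KELLY and SK-N-DZ, BRM014 raised RND3 by 2.43 and 0.91. Of the 17 genes, 14 had the lower auxin effect, with medians of 0.32 with BRM014 and -0.91 with auxin. Among these were SYNPO2, an actin-bundling protein (1.15 ± 0.25), CHD7, a chromatin remodeller (0.80 ± 0.18), TSC22D2 (0.82 ± 0.19), LPP, a focal adhesion protein (1.23 ± 0.29), and CAMK4, a calcium-dependent kinase (0.83 ± 0.20). RND3 was called under all 16 alternatives, and the others lost the call without 1 or more libraries. Without BRM014 replicate 1, SYNPO2 was at 1.00, CHD7 at 0.61 and CAMK4 at 0.77. Without auxin replicate 2, SYNPO2 was at 0.90, TSC22D2 at 0.71 and CAMK4 at 0.75. LPP was at 1.15, 1.14 and 1.17 without BRM014 replicate 2, DMSO replicate 2 and auxin replicate 1, and CAMK4 at 0.76 and 0.73 without DMSO replicate 2 and ethanol replicate 1. NXPH1, a neurexin ligand, had 34 and 54 counts with BRM014 against 119 and 53 with DMSO. It had no count with auxin against 16 over the ethanol libraries, at least 5.07-fold lower. As fitted, its call was lost without BRM014 replicate 2 (5.41), DMSO replicate 2 (5.36), auxin replicate 1 (5.69), auxin replicate 2 (5.68) or ethanol replicate 1 (4.64), and after thinning (5.36).

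The 30 genes called in both arms in the same direction included CCND1 and CCNG2. CCND1, the G1 cyclin D1 and a member of the adrenergic circuit, had 1384 and 1395 CPM with BRM014 against 3181 and 3133 CPM with DMSO, and 1725 and 1810 CPM with auxin against 2172 and 2158 CPM with ethanol. It fell by 1.18 ± 0.08 with BRM014 and by 0.29 ± 0.08 with auxin (difference -0.89 ± 0.11, adjusted p = 3.89e-09). CCNG2, an atypical cyclin of resting cells, had 302 and 313 CPM with BRM014 against 80.9 and 72.3 CPM with DMSO, and 150 and 191 CPM with auxin against 109 and 113 CPM with ethanol (difference 1.38 ± 0.24, adjusted p = 6.13e-05). Each of these groups lay apart from its control. BEND4 (1.24 ± 0.17) and the co-repressor IRF2BP2 (0.97 ± 0.14) were higher in both arms, and LZTS1 (-1.27 ± 0.24) and the microtubule-associated EML5 (-0.96 ± 0.19) lower. DKK1, a secreted Wnt antagonist, had 1734 and 1785 CPM with BRM014 against 387 and 357 CPM with DMSO, and 413 and 502 CPM with auxin against 158 and 162 CPM with ethanol. It rose by 2.24 ± 0.11 with BRM014 and by 1.51 ± 0.12 with auxin. Its difference of 0.73 ± 0.16 (adjusted p = 0.00391) lost the call without DMSO replicate 2 (0.67) or auxin replicate 1 (0.57) and after thinning (0.59).

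In 13 genes the difference was called with neither arm called. Of those described here, PEAK1 was near the threshold in both arms with opposite signs, and AHRR and VEGFB rested on few counts. PEAK1, a pseudokinase of the cytoskeleton, had 76.6 and 85.7 CPM with BRM014 against 110 and 135 CPM with DMSO, and 195 and 185 CPM with auxin against 116 and 127 CPM with ethanol. Its changes of -0.59 ± 0.23 (adjusted p = 0.0778) and 0.64 ± 0.19 (adjusted p = 0.0537) gave a difference of -1.23 ± 0.30 (adjusted p = 0.00952), which missed the threshold without BRM014 replicate 1 (-1.15), DMSO replicate 2 (-1.08) or ethanol replicate 1 (-1.17). AHRR, the repressor of the aryl hydrocarbon receptor, had no count with BRM014 against 18 over the DMSO libraries, at least 3.40-fold lower, and 28 and 43 counts with auxin against 6 and 0 with ethanol. Its call was lost without BRM014 replicate 1, BRM014 replicate 2, DMSO replicate 2 or ethanol replicate 2 (-9.94, -9.94, -8.14 and -8.86 as fitted). VEGFB, a growth factor of the VEGF family, had no count with BRM014 against 14 with DMSO (at least 2.65-fold lower), and 11 with auxin against none with ethanol (at least 3.86-fold higher). Its call was lost without auxin replicate 2, which held 10 of those 11 counts (-9.02 as fitted).

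Of the 30 adrenergic regulators on the list used, all of which were tested, 9 were called for the difference, or 30.0%, against 1.95% of all genes. Among these, SOX4, INSM1 and SATB1 had the BRM014 effect above the auxin effect, and MYCN, PHOX2A, ISL1, CCND1 and TBX2 had it below. The list had been drawn up with earlier results of these data known, so this share is a description. The median difference over the list was -0.07, near the -0.04 of all genes.

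MYCN (chr2:15940564-15947007, plus strand), the amplified oncogene of this line, had 3719 and 3631 CPM with BRM014 against 5302 and 4748 CPM with DMSO, and 6014 and 6836 CPM with auxin against 5866 and 5701 CPM with ethanol. It fell with BRM014 by 0.45 ± 0.06 and was at 0.15 ± 0.06 with auxin (adjusted p = 0.255). The difference of -0.60 ± 0.09 (adjusted p = 1.22e-06) ranged from -0.72 to -0.49 over the 16 alternatives and was called in each. Reads of the antisense gene MYCNOS could have been counted to MYCN, since the strand setting is not given. TBX2, a T-box repressor of the same circuit, had 239 and 191 CPM with BRM014 against 522 and 466 CPM with DMSO, and 331 and 349 CPM with auxin against 372 and 389 CPM with ethanol (difference -1.04 ± 0.18, adjusted p = 4.85e-05). Both genes thus stood lowest in the BRM014 libraries.

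The homeobox factor PHOX2A, a regulator of noradrenergic neurons, rose with auxin, and its change with BRM014 was not called. PHOX2A had 323 and 298 CPM with BRM014 against 288 and 265 CPM with DMSO, and 499 and 534 CPM with auxin against 324 and 272 CPM with ethanol. It rose by 0.80 ± 0.11 with auxin and was at 0.16 ± 0.13 with BRM014 (difference -0.63 ± 0.17, adjusted p = 0.0267). With 1 library left out, that difference ranged from -0.77 to -0.51. The call was lost in several of these fits, which reach fewer calls by construction. PHOX2A missed the threshold without BRM014 replicate 1 (-0.69), BRM014 replicate 2 (-0.58), DMSO replicate 1 (-0.57), DMSO replicate 2 (-0.69), auxin replicate 2 (-0.58) or ethanol replicate 2 (-0.51), and with the GC and length offsets (-0.32, adjusted p = 0.44). In KELLY and SK-N-DZ, where BRM014 was given and auxin was not, PHOX2A changed by -0.89 and -0.76. ISL1, a LIM homeobox factor, had 334 and 340 CPM with BRM014 against 473 and 427 CPM with DMSO, and 149 and 164 CPM with auxin against 131 and 132 CPM with ethanol. Its difference of -0.67 ± 0.17 (adjusted p = 0.0186) lost the call without any one of 6 libraries, both BRM014, DMSO replicate 1, auxin replicate 2 and both ethanol, at -0.68 to -0.59. SATB1, a chromatin organiser, differed by 0.72 ± 0.16 (adjusted p = 0.00231). HAND2 (-0.27 ± 0.14, adjusted p = 0.419) and GATA3 (0.37 ± 0.15, adjusted p = 0.229) were not called for the difference.

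**Figure D3:**
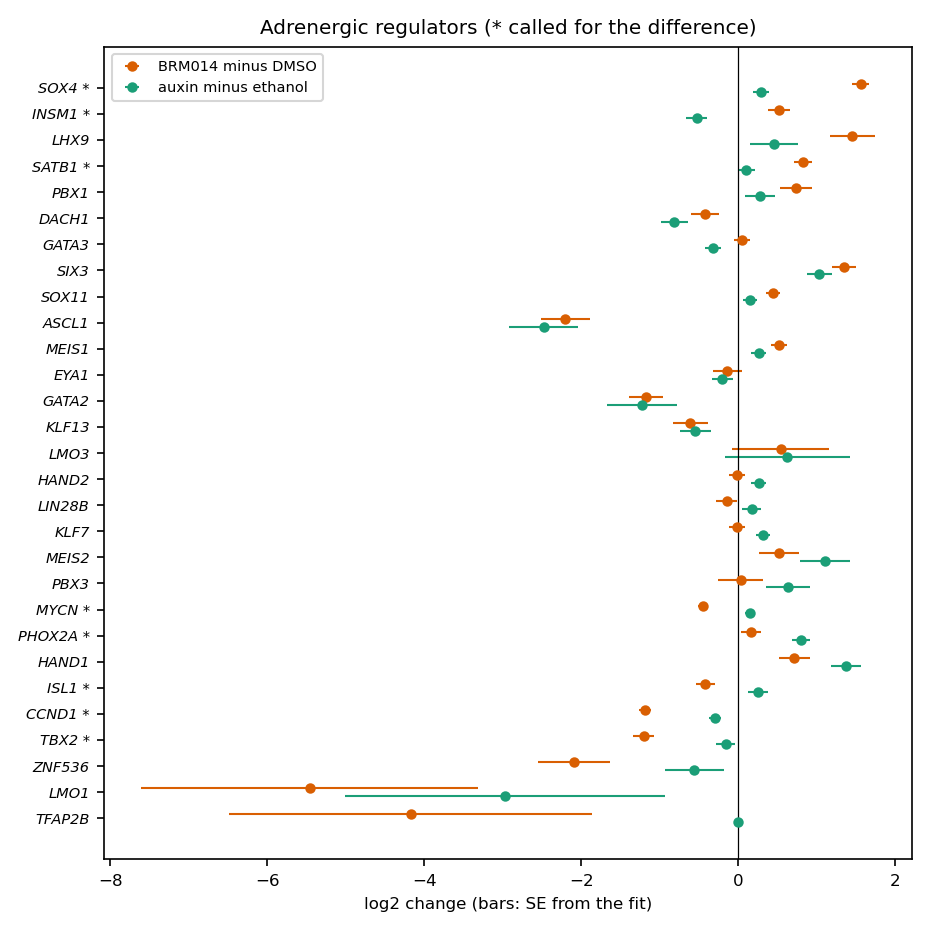
Log2 change (x axis, bars are SE from the fit) of the adrenergic regulators reported with BRM014 over DMSO and with auxin over ethanol, ordered from the highest difference between the arms at the top to the lowest at the bottom. An asterisk marks genes called for the difference. INSM1 has its points on either side of 0, SOX4 and TBX2 have the BRM014 point away from 0, and PHOX2A has the auxin point away from 0.

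Genes of DNA replication are switched on by E2F factors at the start of S phase. Of 40 members tested, 7 were called lower for the difference and none higher, or 17.5% against 0.887% of all genes called lower. These were E2F2, RFC5, E2F1, CDCA7, MCM4, MCM3 and RRM2. The median difference over the list was -0.55, against -0.04 over all genes, with a median of -0.81 with BRM014 and -0.25 with auxin. BRM014 lowered 24 members and auxin lowered 3, and neither raised any. The count of 7 became 4 after thinning and 4 with the GC and length offsets. It was 3 without BRM014 replicate 1, DMSO replicate 1 or auxin replicate 2, and 4 without ethanol replicate 2. CDCA7, a chromatin factor of proliferating cells, had 113 and 118 CPM with BRM014 against 285 and 306 CPM with DMSO, and 346 and 420 CPM with auxin against 493 and 453 CPM with ethanol (difference -1.05 ± 0.20, adjusted p = 0.000277). E2F2, an activating E2F, had 50.1 and 45.0 CPM with BRM014 against 145 and 146 CPM with DMSO, and 111 and 93.4 CPM with auxin against 130 and 113 CPM with ethanol (difference -1.36 ± 0.28, adjusted p = 0.00106). Both genes were lowest, relative to their control, in the BRM014 libraries. MCM4, a subunit of the replicative helicase, differed by -0.94 ± 0.21 and lost the call without BRM014 replicate 1 (-0.77). Of 35 genes of G2 and mitosis, only MKI67, the marker of cycling cells, was called, at -0.77 ± 0.15 (adjusted p = 0.000277). That share of 2.86% is near the 1.95% of all genes, and the count was 2 with the GC and length offsets.

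Letters of an E2F site (TTTCCCGC or TTTGGCGC on either strand) occurred in 15 of the 90 promoters (16.7%) available for genes called lower for the difference, in 2 of the 107 (1.87%) available for genes called higher, and in 3.76% of the promoters of all tested genes. The 15 genes were AEN, CDC25A, CDCA7, CNBP, DCTN1, DTL, E2F1, E2F2, INTS7, MCM3, MCM8, MYCN, RBL1, UBAP1 and ZNF367, and 4 of them are on the DNA replication list. On that list 19 of 36 promoters (52.8%) held such letters. These shares are a description of windows of 300 bases, were not tested, and the form TTTCCCGC can share letters with a neighbouring GC box. The promoters of CDCA7 (chr2:173354622-173354921, plus strand) and E2F2 (chr1:23531184-23531483, minus strand) are shown from RefSeq GRCh38.p14. These genes had the smallest p for the difference among the 4 replication genes called lower with such letters. The letters were thus a condition for being shown. Capitals mark the E2F letters and, in CDCA7, also a GC box, both read on the other strand. In E2F2 the letters are read on the gene's own strand.
CDCA7: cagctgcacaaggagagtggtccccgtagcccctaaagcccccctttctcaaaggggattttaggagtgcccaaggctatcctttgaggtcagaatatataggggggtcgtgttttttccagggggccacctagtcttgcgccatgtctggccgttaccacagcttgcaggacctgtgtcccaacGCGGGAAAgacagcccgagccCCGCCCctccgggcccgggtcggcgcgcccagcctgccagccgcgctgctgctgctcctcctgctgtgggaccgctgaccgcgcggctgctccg
E2F2: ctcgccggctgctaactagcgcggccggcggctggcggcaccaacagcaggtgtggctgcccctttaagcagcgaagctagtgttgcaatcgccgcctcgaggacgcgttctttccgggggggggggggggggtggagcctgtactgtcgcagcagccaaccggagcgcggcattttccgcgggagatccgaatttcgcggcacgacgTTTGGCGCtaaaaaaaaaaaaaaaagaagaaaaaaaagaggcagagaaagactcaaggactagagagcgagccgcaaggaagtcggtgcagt

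The heat shock response makes chaperones that refold damaged proteins. Of 19 members of its list tested, FKBP4, HSPA8, HSP90AB1 and HSP90AA1 were called lower for the difference and none higher, or 21.1% against 0.887% of all genes called lower. HSPA8 and HSP90AB1 stood far above the median level of 32.5 CPM of all tested genes, and the share was not matched for level. The list's median difference was -0.45, against -0.04 over all genes. HSPA8, the constitutive HSP70, had 760 and 978 CPM with BRM014 against 1765 and 1788 CPM with DMSO, and 1239 and 1281 CPM with auxin against 1634 and 1663 CPM with ethanol (difference -0.64 ± 0.13, adjusted p = 0.000533). It was at -0.47 without BRM014 replicate 1 and then not called. HSP90AB1, the constitutive HSP90, had 931 and 924 CPM with BRM014 against 1599 and 1575 CPM with DMSO, and 944 and 1027 CPM with auxin against 1148 and 1076 CPM with ethanol (difference -0.60 ± 0.12, adjusted p = 0.000653). These genes have processed pseudogenes, and no source used here says how reads that match several places were counted. FKBP4 lost the call without any 1 of the 8 libraries (-1.28 to -0.91), and HSP90AA1 without BRM014 replicate 1, DMSO replicate 1, auxin replicate 2 or ethanol replicate 1 (-0.54 to -0.48). The count of 4 was 1 without BRM014 replicate 1 and 2 without DMSO replicate 1, auxin replicate 2 or ethanol replicate 1.

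The Wnt, BMP and TGF-beta pathways carry signals that pattern the neural crest, from which sympathetic cells arise. Of 28 members tested, DKK1, SKIL, DACT1 and ID4 were called higher for the difference and none lower, or 14.3% against 1.06% of all genes called higher. The list's median difference was 0.62, against -0.04 over all genes. SKIL, a repressor of SMAD signalling, had 1453 and 1365 CPM with BRM014 against 754 and 803 CPM with DMSO, and 618 and 585 CPM with auxin against 592 and 592 CPM with ethanol (difference 0.83 ± 0.13, adjusted p = 3.11e-06). ID4, an inhibitor of basic helix-loop-helix factors, had 390 and 426 CPM with BRM014 against 56.6 and 65.9 CPM with DMSO, and 53.1 and 45.7 CPM with auxin against 25.5 and 18.9 CPM with ethanol. It rose by 2.74 ± 0.25 with BRM014 and by 1.15 ± 0.30 with auxin. Its difference of 1.58 ± 0.40 (adjusted p = 0.014) lost the call without BRM014 replicate 2 (1.52), DMSO replicate 1 (1.47), auxin replicate 2 (1.48) or ethanol replicate 1 (1.36) and after thinning (1.39). DACT1, a Dishevelled-binding antagonist, differed by 1.31 ± 0.34 (adjusted p = 0.0186) and kept its call in 9 of 16 alternatives. The count of 4 was 6 with DESeq2, with the 8 IMR-32 libraries alone and with the GC and length offsets, and 2 after thinning and without BRM014 replicate 2, auxin replicate 1 or ethanol replicate 1. The list's median was then 0.33 after thinning, 0.26 without BRM014 replicate 2 and 0.28 without ethanol replicate 1.

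On a list drawn up as targets of p53, 26 genes were tested. The stress-response protein TP53INP1 (1.22 ± 0.22, adjusted p = 0.000177) and CCNG2 were called higher for the difference. AEN, a nuclease, and PHLDA3, an AKT inhibitor, were called lower. Whether each member, CCNG2 among them, answers to p53 in these cells was not tested. These calls make up 15.4% of the list, against 1.95% of all genes. CDKN1A, the cell cycle inhibitor p21, fell by 1.66 with BRM014 and by 1.56 with auxin, with a difference of -0.10 that was not called (adjusted p = 0.99). The lower calls of AEN (-0.38) and PHLDA3 (-2.31) were lost with the GC and length offsets. They were also lost without BRM014 replicate 2 (-0.61 and -3.13), auxin replicate 2 (-0.66 and -2.50) or ethanol replicate 2 (-0.61 and -2.46), AEN without DMSO replicate 1 (-0.62), and PHLDA3 without BRM014 replicate 1 (-2.22), DMSO replicate 2 (-2.21), auxin replicate 1 (-2.70) or ethanol replicate 1 (-2.74). The list's median of -0.48 was -0.12 without auxin replicate 2. Of 65 ribosomal protein genes none was called for the difference by edgeR or DESeq2 (10 at an unadjusted p below 0.05), while BRM014 lowered 15 and auxin none. Of 32 genes on a list drawn up as nucleolar targets of MYC, none was called by edgeR with the settings used throughout or by DESeq2. Of these, 8 were at an unadjusted p below 0.05 (edgeR), and BRM014 lowered 6. The edgeR test called 1 member, LDHA, under 6 alternatives (no filter, the 8 IMR-32 libraries alone, the replicate block, thinning, and the offsets with and without the block). LDHA is a glycolysis enzyme and not a nucleolar protein, so that call says nothing about nucleolar genes. Of 29 BAF subunits tested only ARID2, the defining subunit of PBAF complexes, was called, at 0.63 ± 0.17. That share of 3.45% is near the 1.95% of all genes and is no result about the subunits. Of 24 hypoxia and glycolysis genes only GAPDH was called (-0.64 ± 0.16), or 4.17% against 1.95% of all genes, and both agents lowered it. The count was 3 with no filter, with the 8 IMR-32 libraries alone, with the replicate block and after thinning, where LDHA, the lactate dehydrogenase of glycolysis, was among those called. Calls of ARID2 and GAPDH were lost with the GC and length offsets (0.52 and -0.41). They were also lost without BRM014 replicate 1 (0.52 and -0.40), DMSO replicate 1 (0.59 and -0.63), DMSO replicate 2 (0.68 and -0.64), auxin replicate 2 (0.61 and -0.64) or ethanol replicate 1 (0.53 and -0.49), and ARID2 without auxin replicate 1 (0.63). No member of the lists of NRF2 targets, Notch genes, HOX genes, extracellular matrix and interferon response was called by edgeR, of 19, 16, 10, 26 and 7 tested. At an unadjusted p below 0.05 the numbers were 3, 3, 0, 4 and 1, and DESeq2 called 1 matrix gene and none of the others. Over all alternatives the counts reached 1 for NRF2 targets, 1 for Notch genes and 2 for matrix genes. The 8 remaining lists of tested pathways had 1 to 3 calls each, or 3.45% to 14.3% of those tested.

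**Figure D4:**
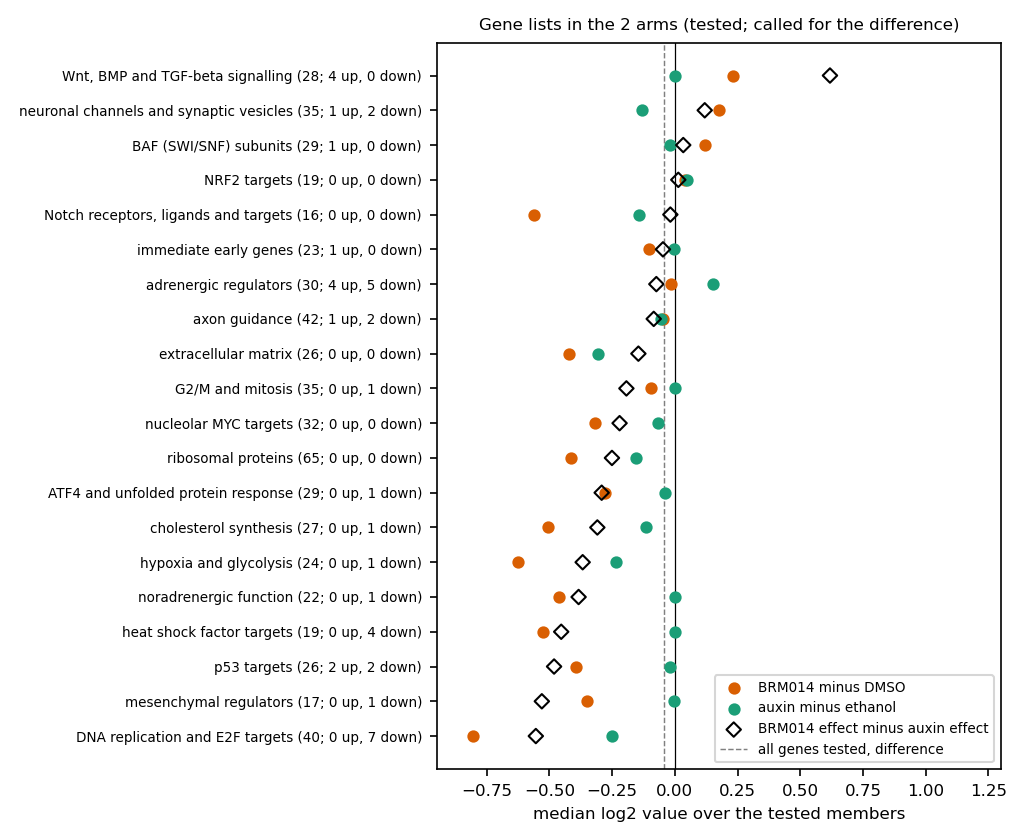
Median log2 value (x axis) over the tested members of each gene list with at least 16 members tested, for BRM014 over DMSO, auxin over ethanol, and the difference between them, with the number tested and the number called higher (up) and lower (down) for the difference beside each name. The dashed line is the median difference of -0.04 over all genes. DNA replication genes have the lowest median difference (-0.55) and Wnt, BMP and TGF-beta genes the highest (0.62).

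KELLY and SK-N-DZ, also neuroblastoma lines with amplified MYCN, received BRM014 or DMSO. Their libraries bore on the difference through the shared estimate of spread, the scaling and the filter that set which genes were tested. Of the 136 genes with a higher BRM014 effect in IMR-32, BRM014 raised 79 (58.1%) and lowered 8 in KELLY, where it raised 6.57% of all genes. In SK-N-DZ it raised 86 (63.2%) and lowered 7, against 9.88% of all genes raised. Of the 114 genes with a lower BRM014 effect, BRM014 lowered 49 (43.0%) and raised 8 in KELLY, against 4.98% of all genes lowered. In SK-N-DZ it lowered 69 (60.5%) and raised 8, against 9.55% of all genes lowered. The 14 genes that auxin alone lowered in IMR-32 were raised by BRM014 in 10 cases and lowered in 2 in KELLY, and raised in 7 and lowered in none in SK-N-DZ.

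The reverse reading chose genes on KELLY and SK-N-DZ alone and then looked at IMR-32. BRM014 raised 450 genes in both lines. In IMR-32 their median log2 change was 0.58 with BRM014 (quartiles 0.29 and 0.93) and 0.17 with auxin (quartiles 0.00 and 0.38). BRM014 called 237 of them higher in IMR-32 and 7 lower, and auxin 46 higher and 12 lower, where BRM014 raised 6.26% and auxin 1.03% of all genes. The difference was called higher for 65 (14.4%, against 1.06% of all genes) and lower for 4, and it was above 0 for 382 (84.9%). Over all genes it was above 0 for 5954 of 12853. BRM014 lowered 344 genes in both lines, and these had a median of -0.82 with BRM014 in IMR-32 (quartiles -1.32 and -0.38) and -0.28 with auxin (quartiles -0.61 and -0.05). The difference was called lower for 41 (11.9%, against 0.887% of all genes) and higher for 4, and was below 0 for 274 (79.7%). Genes that BRM014 moved in the other lines thus changed in the same direction in both IMR-32 arms on the median, and further with BRM014. They were chosen by their change with the same agent, and none by depletion, which favours the BRM014 arm. How much of the gap between the arms this choice makes was not tested.

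**Figure D5:**
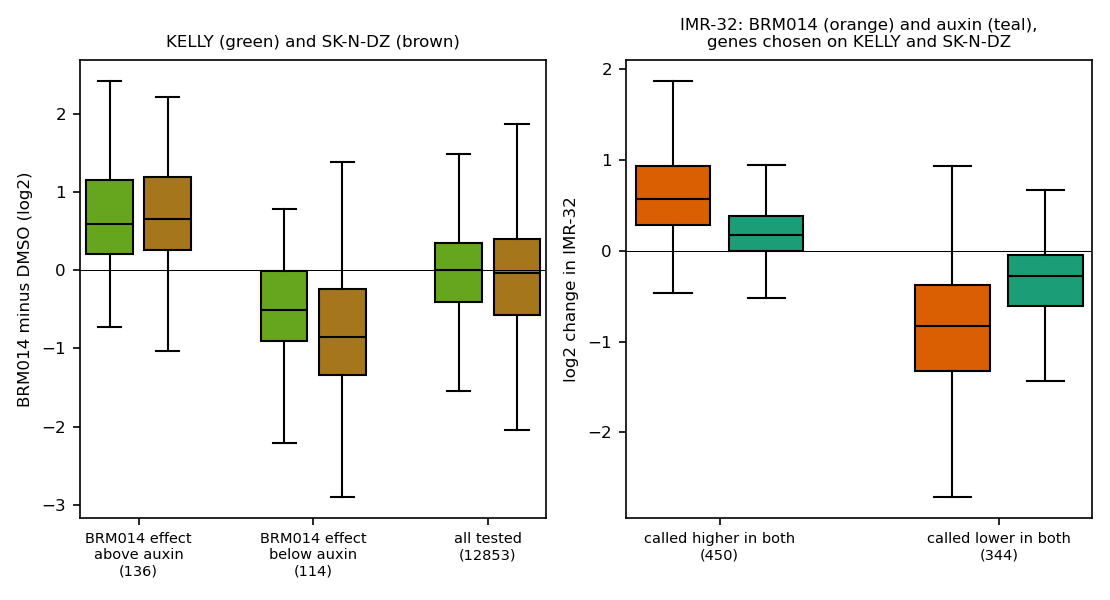
Left, log2 change with BRM014 over DMSO in KELLY and SK-N-DZ for the 136 and 114 genes called for the difference in IMR-32 and for all 12853 genes. Right, log2 change in IMR-32 with BRM014 over DMSO and with auxin over ethanol for the 450 and 344 genes called higher and lower in both KELLY and SK-N-DZ. Boxes span the quartiles with the median as a line, and whiskers reach 1.5 times the quartile range, with points beyond not drawn. In the right panel the auxin boxes lie nearer to 0 than the BRM014 boxes, and the genes were chosen by their change with BRM014.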

How the data were processed

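Newly made messenger RNA was measured in 4sU-labelled cells. Per the labels' protocols, RNA was alkylated with iodoacetate, selected on poly(dT), fragmented and amplified. The authors deposited raw counts per gene symbol for each library, named as conversion counts. The submitters' processing notes name HISAT, HTSeq, DESeq2 and hg38, with no version. Annotation, strand setting and counting rule were not given in the sources used here, so overlapping, antisense or near-identical genes could share reads. The HTSeq summary lines, with 46.4% to 57.4% of reads listed as no feature, were left out of library sizes and tests. The unlabelled KELLY libraries held 5395 and 4432 counts, 0.348% of the labelled KELLY DMSO counts, and were not used further.

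All 16 labelled libraries entered 1 group-means model in edgeR 4.0.16 (R 4.3.3), with TMM scaling, filterByExpr (12853 of 28063 genes kept) and the quasi-likelihood test, with 8 residual degrees of freedom and a biological coefficient of variation of 0.143. Calls needed an adjusted p (Benjamini-Hochberg, over all genes tested) below 0.05. SE values are from the fit. CPM are counts per 1e+06 counts in tested genes, with TMM-scaled library sizes. Changes are relative to the other genes, so a change common to all would not show. Counting floors of 3 counts over a group cover counting error only. Libraries of 1 group differed by more than sampling noise (chi-square per degree of freedom of 2.36 to 3.34). The steps were checked on simulated data in which 200 genes, none at low counts, were changed with BRM014. The test of the difference recovered 31% of those changed by a log2 of 1 and 77% of those changed by 2. Of its 114 calls 6 were false. A gene or list without a call may thus still differ. Gene positions, transcript GC content and length are from GENCODE 29, and promoters from RefSeq.

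Alternatives were DESeq2 1.42.0, RLE scaling, no filter, the 8 IMR-32 libraries alone, a replicate block, thinning, GC and length offsets, these offsets with the block, and leaving out each IMR-32 library. Genes named were the called differences at both ends, 12 each, with a mean count of at least 50 in a group and non-overlapping library differences, the 6 smallest p of each class of called genes, 10 fixed genes, and up to 4 called members of each of 29 lists. The 15 genes with E2F letters, HAND2-AS1 and list members named beyond these were chosen after their values were seen. The members, lists and tests were chosen with earlier results of these data known. Some members of the lists are not reported here.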

Additional observations from a re-analysis of the deposited data

Results flagged for a closer look

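The 6 genes called in both arms in opposite directions are singled out because the test of the difference between the arms passed for each and the treated libraries lay on opposite sides of their controls in the arms. The log2 differences, BRM014 effect minus auxin effect, were -3.19 for RGS4, -2.19 for CXCR4, -1.83 for LRRN3, 0.92 for MAB21L1, 1.05 for INSM1 and 1.12 for SLAIN1. In KELLY and SK-N-DZ, BRM014 gave 0.20 and -0.64 for RGS4, -1.41 and -1.06 for CXCR4, 0.04 and 0.47 for LRRN3, 1.39 and 0.62 for MAB21L1, 0.29 and -0.28 for INSM1, and 0.33 and 1.21 for SLAIN1. In KELLY none of RGS4, CXCR4 and LRRN3 was called, and of MAB21L1, INSM1 and SLAIN1 only 1 was called, as higher. In SK-N-DZ, RGS4 and CXCR4 were called lower, and MAB21L1 and SLAIN1 higher. LRRN3 was called higher there, opposite to its fall with BRM014 in IMR-32. The mean control level of RGS4 was 126 CPM with DMSO in the parental line and 7.65 CPM with ethanol in the SMARCA4-mAID line. Control libraries of the lines also lay apart in the other genes of this class. DMSO was above ethanol in CXCR4 and LRRN3, and below it in MAB21L1, INSM1 and SLAIN1. The part of these gaps in the opposite signs was not tested.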

How the results depend on the processing

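Of 81 named genes called for the difference, 37 kept call and direction under all 16 alternatives, and no called gene changed sign. Leaving out 1 library at a time gave 131 to 174 calls for the difference, 904 to 1655 in the BRM014 arm, 124 to 292 in the auxin arm and 1 to 4 in opposite directions. Each such fit leaves a group with 1 library, which is assumed to vary like the other groups, and fewer samples reach fewer calls by construction. The number of genes in opposite directions was 10 with the 8 IMR-32 libraries alone and 3 after thinning, and the cause was not tested. DESeq2 called 296 genes for the difference (228 shared with the 250), RLE scaling 256 (237 shared), no filter 240 (223 shared), the 8 IMR-32 libraries alone 370 (237 shared), and the offsets for GC content and length 210 (185 shared). The replicate block gave 272 calls (248 shared), and 238 with the offsets. Same-numbered libraries did not deviate together (correlations of -0.004 between BRM014 and DMSO and 0.009 between auxin and ethanol over 6446 genes). No pairing by number was thus detected. With 2 libraries per group and counting noise, the check cannot exclude that same-numbered libraries were handled together. Uncalled genes that changed sign were SMARCA4, SMARCA2 and CD68. With 1 library left out, SMARCA4 ranged from -0.033 to 0.21 (below 0 without DMSO replicate 1 or ethanol replicate 2), SMARCA2 from -0.66 to 1.27 (below 0 without BRM014 replicate 1, DMSO replicate 2, auxin replicate 2 or ethanol replicate 2) and CD68 from -0.46 to 1.99 (below 0 without BRM014 replicate 2). Thinning and the offsets ended 15 and 13 of the 81 calls. The BRM014 libraries, at 741970 and 775064 counts, were the smallest of the 8. In 11 of the 250 genes a group held 3 counts or fewer, against 1683 of all 12853 tested. Of the 11, 4 had the higher BRM014 effect and 7 the lower. The group at the floor was not always BRM014, and NXPH1 had no count with auxin.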

Other observations

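Several genes called for the difference changed with BRM014 in KELLY in the direction opposite to IMR-32, and the difference between lines was not tested. On the log2 scale, HRK rose by 1.55 in IMR-32 and fell by 1.26 in KELLY. The guidance receptor NRP2 fell by 1.28 in IMR-32, where its difference was -1.14 ± 0.27 (adjusted p = 0.0078), against changes of 2.52 in KELLY and 1.24 in SK-N-DZ, both called. That difference lost the call without BRM014 replicate 1 (-0.93), DMSO replicate 1 (-1.05) or auxin replicate 2 (-1.04). EML5 changed by -1.56 in IMR-32 and by 0.79 in KELLY. LIMA1 was at -1.41 in IMR-32, -0.84 in SK-N-DZ and 0.71 in KELLY, all called.

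HAND2-AS1, the antisense neighbour of HAND2, had the second smallest p for the difference. It had 930 and 891 CPM with BRM014 against 1968 and 2088 CPM with DMSO, and 1426 and 1386 CPM with auxin against 1323 and 1438 CPM with ethanol. Its changes were -1.16 with BRM014 and 0.03 with auxin, for a difference of -1.18 ± 0.12 (edgeR, adjusted p = 1.56e-11), while HAND2 itself was at -0.27 and not called.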
